A study of Mus musculus with 2 samples.

Results

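The 10 genes described here encode Toll-like receptors of the mouse: Tlr1, Tlr2, Tlr3, Tlr4, Tlr5, Tlr6, Tlr7, Tlr8, Tlr9 and Tlr13. They were chosen by gene family, as the rows bearing these symbols among the 35522 features that both expression tables list, and all 10 were found. Neutrophils (CD11b+, Ly6G high, Ly6C low or negative) had been sorted from bone marrow (the study used young Balb/C mice) and kept in RPMI-1640 medium with GM-CSF, a myeloid growth factor, at 10 ng/ml. The PBS-treated cells received buffer for 3 days, and the ELV-treated cells received 20 μg/ml of exosomes for 3 days, so both groups had the growth factor and differed by the vesicles. The exosomes came from spheres of CT26, a murine colon cancer line, grown as cancer stem cells in serum-free medium. Each group was 1 library, whether several mice were pooled is not stated, so no value has a replicate check and no test was possible.

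Toll-like receptors are membrane proteins whose outer part binds molecules of microbes or damaged cells and whose inner TIR domain recruits the adaptors MyD88 or TRIF, which lead to NF-κB and to interferon regulatory factors. Those at the cell surface see mainly lipids and proteins: TLR2 pairs with TLR1 or TLR6 to bind lipopeptides, TLR4 binds lipopolysaccharide together with MD-2, and TLR5 binds flagellin. Those in endosomes see nucleic acids: TLR3 binds double-stranded RNA, TLR7 and TLR8 sense single-stranded RNA, TLR9 senses unmethylated CpG DNA, and TLR13 senses ribosomal RNA of bacteria. In neutrophils these receptors set off cytokine release, adhesion and longer survival. The study asked how neutrophils recognise the RNA cargo of the vesicles. It proposed that tri-phosphate exosomal RNA raises IL-1β through pattern recognition and NF-κB, and cited RIG-1, which is not a Toll-like receptor. From the same RNA sequencing the study reported pathways of pattern recognition receptors as enriched in exosome-treated neutrophils. It also reported higher expression of such receptors in these cells. IL-1β expression there was lower after phosphatase treatment of the RNA, actinomycin D or an NF-κB inhibitor. The values here show which receptor transcripts the cells held with and without exosomes.

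In these libraries the receptor genes did not differ in a common direction. Tlr1, Tlr9 and Tlr7 were at least 2-fold higher in ELV-treated neutrophils, by ratios of 5.63, 3.22 and 2.35. Tlr5 was lower, at 0.194 of its PBS value. By the same limits 31.5% of all genes kept were up and 5.62% were down. The other 5 genes above the filter, Tlr2, Tlr4, Tlr6, Tlr8 and Tlr13, lay between ratios of 0.618 and 1.22. Tlr3 was close to absent from both libraries. Values are RPKM, reads scaled to exon length and to the mapped reads of the library, a unit in which genes of different length can be compared. Genes under 0.25 RPKM in either library were left out, and a gene was called up at an ELV to PBS ratio of 2 or more and down at 0.5 or less, which is the rule of the study. RNA was taken from the whole culture, so fewer cells of a type and less RNA per cell cannot be told apart.

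The number of mapped reads is not given and was estimated from the smallest values, at about 65960000 in PBS and 79120000 in ELV. At that depth the receptor genes kept rest on about 654 to 35548 reads each in PBS and 1078 to 27146 in ELV, so counting error was small for all but Tlr3. S100a8 and S100a9 held 21.2% of the summed RPKM in PBS and 8.13% in ELV. Intervals given with values are 95% intervals of these estimated read numbers and cover counting error alone.

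The windows before the transcription start of 4 of these genes are printed to show the letters in front of the genes that differed most and of Tlr6, the neighbour of Tlr1. Each is the 250 bases upstream of a RefSeq start, 5′ to 3′ on the strand of the gene, in build GRCm38.p6 (the reference genome, not that of the Balb/C mice), and RefSeq windows were found for 8 of the 10 genes, without Tlr4 and Tlr7. Tlr1 is shown from chr5:64933559-64933808 (minus strand), Tlr6 from chr5:64959167-64959416 (minus strand), Tlr5 from chr1:182954538-182954787 (plus strand) and Tlr9 from chr9:106222348-106222597 (plus strand). RefSeq lists another start for Tlr1 and for Tlr6, whose windows are not printed. Capitals mark letters that match one of 5 searched motifs on either strand: an NF-κB-like GGNNNTTCC, an ETS-like GAGGAAGT, an interferon-response-like GAAANNGAA, an AP-1-like TGANTCA and a C/EBP-like TTGCNNAA.
Tlr1: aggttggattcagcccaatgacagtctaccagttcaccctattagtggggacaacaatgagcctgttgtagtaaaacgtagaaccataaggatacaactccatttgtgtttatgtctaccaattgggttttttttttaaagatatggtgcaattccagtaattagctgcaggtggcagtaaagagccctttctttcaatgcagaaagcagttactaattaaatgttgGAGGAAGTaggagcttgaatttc
Tlr6: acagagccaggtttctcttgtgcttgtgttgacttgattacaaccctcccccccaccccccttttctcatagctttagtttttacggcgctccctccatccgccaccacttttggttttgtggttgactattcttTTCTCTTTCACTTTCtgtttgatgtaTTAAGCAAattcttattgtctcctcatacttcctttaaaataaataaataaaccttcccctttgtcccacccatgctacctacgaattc
Tlr5: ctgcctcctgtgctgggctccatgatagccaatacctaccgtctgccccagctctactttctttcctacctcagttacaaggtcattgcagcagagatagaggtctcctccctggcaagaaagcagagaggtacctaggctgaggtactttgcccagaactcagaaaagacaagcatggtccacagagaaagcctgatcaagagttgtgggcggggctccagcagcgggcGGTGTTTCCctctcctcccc
Tlr9: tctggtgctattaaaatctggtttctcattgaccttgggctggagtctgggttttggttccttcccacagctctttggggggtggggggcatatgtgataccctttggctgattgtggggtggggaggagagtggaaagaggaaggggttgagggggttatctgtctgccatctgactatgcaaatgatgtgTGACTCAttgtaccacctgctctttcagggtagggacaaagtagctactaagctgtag

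The 3 genes called up or down in this print held different motifs. The Tlr1 window had an ETS-like match from 23 to 16 bases before the start, a motif found in 2.44% of all 32851 windows of this length. The Tlr5 window had an NF-κB-like match from 20 to 12 bases before the start, found in 15.7% of all windows. The Tlr9 window had an AP-1-like match from 58 to 52 bases before the start (6.75% of all windows). The Tlr6 window printed had an interferon-response-like pair of overlapping matches (7.13% of all windows) and a C/EBP-like match (9.56%), and Tlr1 shared neither. Over the 8 genes with a window, 4 held the NF-κB-like motif, 3 the C/EBP-like, 2 the interferon-response-like, and 1 each the ETS-like and AP-1-like. Here a gene counted if any of its windows matched, whereas the shares above are per window. The NF-κB-like match of Tlr6 lies in its window that is not printed. The NF-κB-like matches of Tlr2 overlapped each other on opposite strands. A match of letters is a description and not a binding site.

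**Figure D1:**
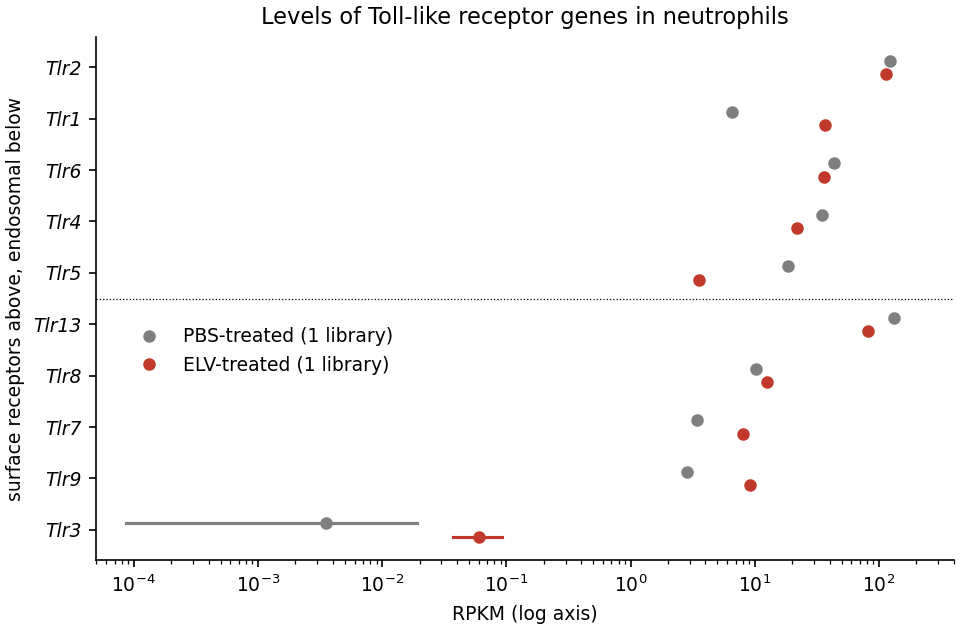
RPKM (log axis) of the 10 Toll-like receptor genes in the PBS-treated library (grey) and the ELV-treated library (red), 1 library each, with surface receptors above the dotted line and endosomal receptors below it. Horizontal lines are 95% exact Poisson intervals of estimated reads, which cover counting error alone and are narrower than the points except for Tlr3. Tlr1 stands at 6.56 and 36.93 RPKM and Tlr5 at 18.42 and 3.57, while Tlr2 stays at 113.83 RPKM or more.

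Among the surface receptors, Tlr2 (chromosome 3, 83836272 to 83841767, minus strand, GRCm38 as are all positions here) was the most abundant in both libraries. It had 123.13 RPKM in PBS-treated and 113.83 RPKM in ELV-treated neutrophils, a ratio of 0.924 and a log2 fold change of -0.11 (95% counting interval -0.14 to -0.09). Of the genes kept, 96% lay below it in PBS and 95.4% in ELV. Its difference was larger than counting error and small beside those of most other receptor genes, although its log2 fold change was -0.65 under the scaling that lowered it most.

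Tlr1 (chromosome 5, 64924679 to 64933563, minus strand), the partner of TLR2 for triacylated lipopeptides, had 6.56 RPKM in PBS and 36.93 RPKM in ELV. Its log2 fold change of 2.49 (counting interval 2.41 to 2.58) was the highest of the 9 receptor genes kept. Of all genes kept, 96.2% had a lower value. Tlr6 (chromosome 5, 64952031 to 64960097, minus strand), the partner of TLR2 for diacylated lipopeptides, had 43.71 RPKM in PBS and 36.02 RPKM in ELV, a log2 fold change of -0.28 (interval -0.32 to -0.24). Tlr1 and Tlr6 are neighbours on the same strand, 18.5 kb apart with no RefSeq gene between them. Tlr1 was higher and Tlr6 lower in ELV as deposited and under each of the 5 other scalings tried.

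Ratios within a library do not depend on how the libraries were scaled to each other. In PBS-treated neutrophils Tlr6 RNA stood 6.66 times above Tlr1 RNA. In ELV-treated neutrophils the partners stood at a Tlr1 to Tlr6 ratio of 1.02, and their counting intervals overlapped. Tlr2 exceeded Tlr1 by 18.8 times in PBS and by 3.08 times in ELV, whereas it exceeded Tlr6 by 2.82 and 3.16 times. The RNA of the TLR2 partners was thus unequal in PBS and level in ELV. Tlr1 and Tlr6 share sequence: 15.3% of the 50-base stretches of the Tlr1 transcript occur letter for letter in Tlr6 and 12.5% the other way. How the authors assigned such reads is not stated. Estimated reads in PBS were 10601 for Tlr6 and 1309 for Tlr1, so shared reads could weigh on Tlr1 by more than its 15.3%. The PBS value of Tlr1, its fold change and its ratio to Tlr6 are therefore uncertain beyond counting error, by an amount that was not tested. Tlr3 shared 1.56% of its 50-base stretches with the gene model Gm45542, and the other 7 genes shared none with any other gene.

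Tlr4 (chromosome 4, 66827584 to 66930284, plus strand), the lipopolysaccharide receptor, had 34.52 RPKM in PBS and 21.73 RPKM in ELV, a log2 fold change of -0.67 (interval -0.71 to -0.62). The value did not reach the 2-fold limit as deposited, but it did (-1.19 and -1.21) when the median or the trimmed mean of all log ratios was set to 0. Tlr5 (chromosome 1, 182954788 to 182976044, plus strand), the flagellin receptor, had 18.42 RPKM in PBS and 3.57 RPKM in ELV. Its log2 fold change of -2.37 (interval -2.46 to -2.27) was the lowest of the family, and 0.629% of the genes kept had a lower one. Tlr5 was the fifth most abundant receptor gene in PBS and the ninth of 10 in ELV. The ratio of Tlr1 to Tlr5, a pair picked after their values were seen, was 0.356 in PBS and 10.3 in ELV.

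Among the endosomal receptors, Tlr13 (chromosome X, 106143204 to 106160493, plus strand) was far ahead of the rest. It had 132.74 RPKM in PBS, where it was the highest receptor gene of all, and 82.05 RPKM in ELV, where it came after Tlr2. This is a ratio of 0.618, or -0.69 in log2 (interval -0.72 to -0.67), which passed the 2-fold limit, at -1.22 and -1.24, once the median or the trimmed mean of all log ratios was set to 0. Genes of a like level had a median log2 fold change of 0.01, and 18.7% of them lay below Tlr13.

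The other sensors of RNA and DNA were less abundant, and Tlr7 and Tlr9 were higher in ELV. Tlr7 (chromosome X, 167304929 to 167330558, minus strand) had 3.45 RPKM in PBS and 8.11 RPKM in ELV, a log2 fold change of 1.23 (interval 1.12 to 1.35). Tlr9 (chromosome 9, 106222598 to 106226883, plus strand) had 2.85 RPKM in PBS and 9.18 RPKM in ELV, a log2 fold change of 1.69 (interval 1.56 to 1.81). Both were called up as deposited. The call of Tlr7 depended on the scaling, with 0.71, 0.69 and 0.52 once the median, the trimmed mean or the median of genes of like level was set to 0, and that of Tlr9 was lost only under the last of these, at 0.98.

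Tlr8 (chromosome X, 167242696 to 167264329, minus strand), which lies 40.6 kb from Tlr7 on the same strand, had 10.27 RPKM in PBS and 12.54 RPKM in ELV. Its log2 fold change of 0.29 (interval 0.21 to 0.36) turned to -0.24, -0.25 and -0.08 when the median, the trimmed mean or the median of genes of like level was set to 0, so no direction can be given for it. Tlr3 (chromosome 8, 45395665 to 45411080, minus strand) had 0.0035 RPKM in PBS and 0.06 RPKM in ELV. By the estimated depth these values stand for about 1 read and about 21 reads. The ratio was 17.1 with a 95% counting interval of 2.82 to 724, and in both libraries the gene was under the 0.25 limit. Of the other mouse receptors of this family, Tlr11 was listed at 0 in both libraries and Tlr12 at 0.06 and 0.05 RPKM.

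**Figure D2:**
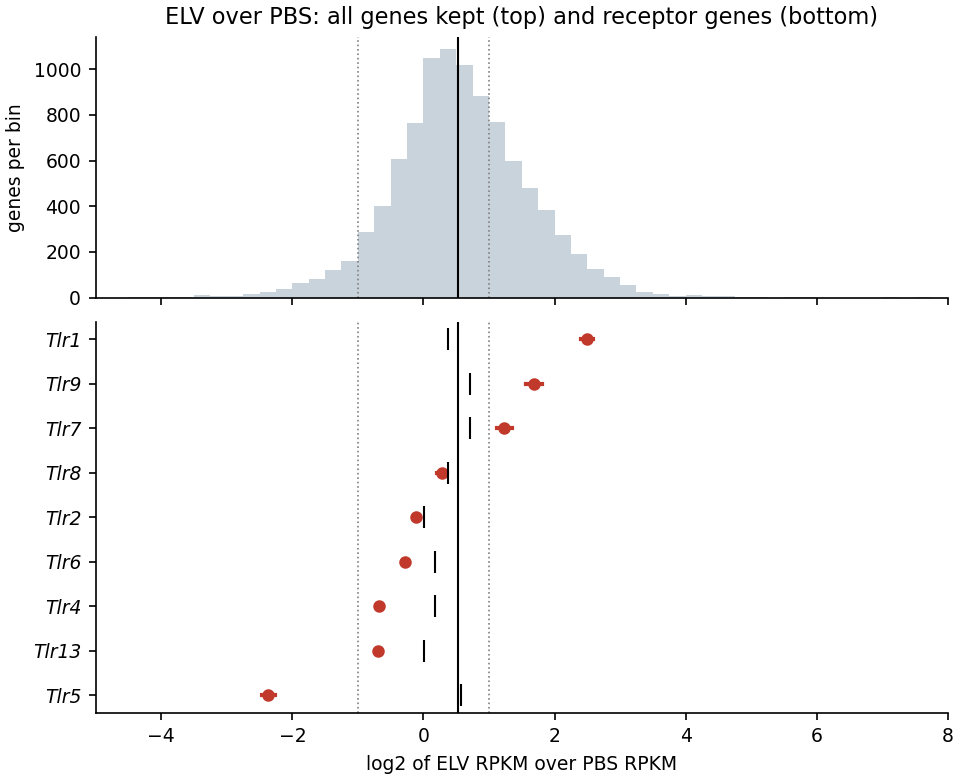
Top, the number of genes per bin of 0.25 in log2 of ELV RPKM over PBS RPKM, for the 9698 genes kept; bottom, the same measure for the 9 receptor genes kept, with 95% counting intervals as red lines. The solid line marks the median of all genes (0.53), dotted lines mark 2-fold, and the short black ticks mark the median of genes of like mean level. Tlr1, Tlr9 and Tlr7 lie right of the upper dotted line and Tlr5 left of the lower one.

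Of 9698 genes kept, 31.5% were up and 5.62% were down. Of the 9 receptor genes kept, 3 (33.3%) were up and 1 (11.1%) was down. The share up as deposited was near that of all genes, and the share down rests on Tlr5 alone. The median log2 fold change of the 9 was -0.11, the value of Tlr2, against 0.53 over all genes, and 3 of the 9 lay above the median of all genes. Over all genes 3056 were up and 545 down as deposited, 1634 and 1282 with their median set to 0, and 1596 and 1321 with their trimmed mean set to 0. With the median set to 0, 2 receptor genes (22.2%) were up and 3 (33.3%) down, beside 16.8% and 13.2% of all genes. The general shift differed with level. When genes were split by mean RPKM into 10 bins, the median log2 fold change was 0.01 in the bin of Tlr2 and Tlr13 and 0.71 in the bin of Tlr7 and Tlr9. Against genes of its own level, Tlr1 stood above 98.3%, Tlr9 above 86.8% and Tlr7 above 72.4%. Tlr5 stood above 0.309% of such genes, Tlr4 above 12%, Tlr6 above 24.2%, Tlr2 above 42.9% and Tlr8 above 44.9%.

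The order of the receptor genes by level was the following. In PBS it ran Tlr13, Tlr2, Tlr6, Tlr4, Tlr5, Tlr8, Tlr1, Tlr7, Tlr9 and Tlr3. In ELV it ran Tlr2, Tlr13, Tlr1, Tlr6, Tlr4, Tlr8, Tlr9, Tlr7, Tlr5 and Tlr3. Neighbours in the order differed beyond counting error in each library, except Tlr1 and Tlr6 in ELV, at 36.93 and 36.02 RPKM. Tlr1 moved from the seventh place to the third.

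**Figure D3:**
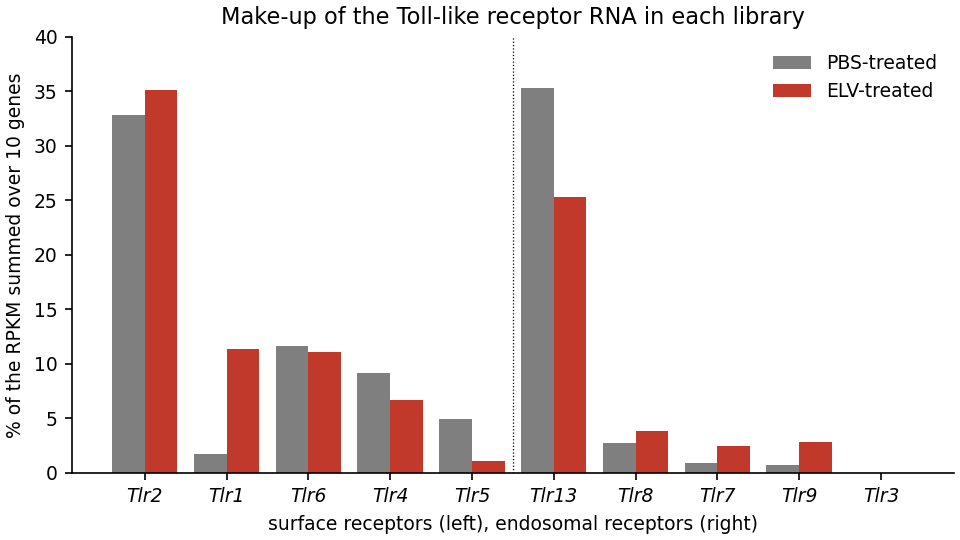
Share of the RPKM summed over the 10 receptor genes that each gene held in the PBS-treated (grey) and ELV-treated (red) library, in percent, with surface receptors left of the dotted line and endosomal receptors right of it. Tlr13 held 35.3% and 25.3%, Tlr1 1.75% and 11.4%, and Tlr5 4.9% and 1.1%.

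Summed over the family, receptor RNA was 375.65 RPKM in PBS and 324.02 RPKM in ELV, a ratio of 0.863. Tlr2 and Tlr13 together held 68.1% of it in PBS and 60.5% in ELV. The 5 surface receptors summed to 226.34 and 212.08 RPKM, and the 5 endosomal receptors to 149.31 and 111.94 RPKM. The lower endosomal sum was that of Tlr13. Without it the endosomal genes summed to 16.57 RPKM in PBS and 29.89 RPKM in ELV, a ratio of 1.8 (0.85 in log2). The median ratio of all genes kept was 1.44, and genes at the level of Tlr7 and Tlr9 had a median log2 of 0.71. This sum and that of Tlr2 and Tlr13 were not among those planned. Within a library, Tlr13 stood 38.5 times above Tlr7 in PBS and 10.1 times in ELV, and 12.9 and 6.54 times above Tlr8. Tlr7 and Tlr9 stayed closer to each other, at Tlr7 to Tlr9 ratios of 1.21 and 0.883. Against Tlr2, the Tlr4 ratio was 0.28 in PBS and 0.191 in ELV, and the Tlr5 ratio 0.15 and 0.0314.

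**Figure D4:**
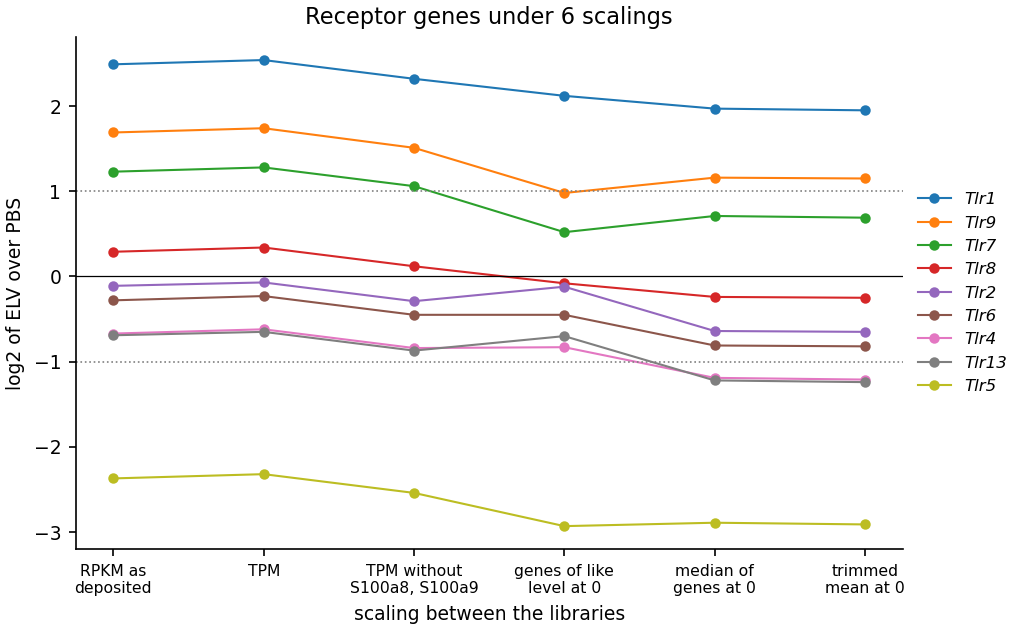
Log2 of ELV over PBS for the 9 receptor genes kept (lines, coloured by gene) under 6 scalings between the libraries, with dotted lines at 2-fold. Tlr1 stays above the upper line (1.95 to 2.54) and Tlr5 below the lower line (-2.93 to -2.32) in all 6, while Tlr7, Tlr9, Tlr4 and Tlr13 cross a line and Tlr8 crosses 0.

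The next genes encode proteins that the receptors need to reach their place or bind their ligand. Of 18 listed genes of accessory and trafficking proteins 17 were kept, 6 up (35.3%, against 31.5% of all genes) and 0 down, with a median log2 fold change of 0.72 against 0.53 over all genes. All 17 were higher in ELV as deposited, as were most genes kept (lower quartile of log2 fold change -0.06). With the median of all genes set to 0, where as many genes lie above as below, 13 were higher and 4 lower. By that setting 6 (35.3%) were up and 0 down, beside 16.8% and 13.2% of all genes. Cd14, the co-receptor that hands lipopolysaccharide to TLR4, had 117.77 RPKM in PBS and 208.76 RPKM in ELV. Ly96, which encodes MD-2, had 34.31 and 42.39 RPKM. Their log2 fold changes of 0.83 and 0.31 lay opposite to the -0.67 of Tlr4 as deposited, and with the median of all genes set to 0 they were 0.30 and -0.22, so that of Ly96 turned. Cd180, a TLR4 homologue that restrains it, had 2.58 and 13.01 RPKM, a ratio of 5.04, whereas its partner Ly86 (MD-1) had 1.54 and 1.93 RPKM.

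Unc93b1, the chaperone that brings nucleic acid receptors to endosomes, had 101.71 RPKM in PBS and 163.18 RPKM in ELV, a log2 fold change of 0.68 (0.16 with the median of all genes set to 0). The accessory list held 5 endolysosomal proteases, which were not a list of their own. They gave 4 of its 6 genes called up, where 31.5% of all genes kept were up. Ctsk (cathepsin K), at 0.46 and 0.51 RPKM with a counting interval of -0.43 to 0.73 in log2, was not called. Ctss (cathepsin S) had 9.94 and 68.03 RPKM, Ctsb (cathepsin B) 56.18 and 282.12 RPKM, Ctsl (cathepsin L) 21.92 and 99.1 RPKM, and Lgmn (legumain) 4.74 and 19.1 RPKM, with ratios of 6.84, 5.02, 4.52 and 4.03. These enzymes have other work in lysosomes as well.

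Of 22 genes of adaptors, kinases and transcription factors of the pathway, 5 (22.7%) were up and 1 (4.55%) was down, beside 31.5% and 5.62% of all genes, with a median log2 fold change of 0.43. As deposited 16 were higher and 6 lower in ELV, where most genes kept were higher too (lower quartile of log2 -0.06). With the median of all genes set to 0 the counts were 9 and 13. By that setting 4 (18.2%) were up and 3 (13.6%) down, beside 16.8% and 13.2% of all genes. Myd88, the adaptor of all these receptors but TLR3, had 63.32 RPKM in PBS and 70 RPKM in ELV. Irak4, the kinase it recruits, had 23.37 and 25.54 RPKM. Tirap, the bridge from TLR2 and TLR4 to MyD88, had 45.86 and 28.22 RPKM (log2 fold change -0.70), close to the values of Tlr4 and Tlr13. Ticam1, which encodes TRIF, had 4.16 and 3.32 RPKM.

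Ticam2, which encodes TRAM, the bridge from TLR4 to TRIF, stood apart from its partner, at 0.68 RPKM in PBS and 6.77 RPKM in ELV, a ratio of 9.96. Ikbke, a kinase that acts on interferon regulatory factors, had 19.58 and 197.93 RPKM. Pik3ap1, which links receptors to PI3 kinase, had 34.91 and 289.34 RPKM. The others past the limits, named after their values were seen, were Map3k7 (TAK1), at 5.43 and 13.73 RPKM, and Ikbkg (NEMO), the one called down, at 47.37 and 16.69 RPKM. Irf7, a transcription factor downstream of TLR7 and TLR9 and itself induced by interferon, had 22.55 and 136.1 RPKM.

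Negative regulators of the pathway differed in both directions. Of 11 kept, 3 (27.3%) were up and 1 (9.09%) was down as deposited, beside 31.5% and 5.62% of all genes, with a median log2 fold change of 0.32. These counts were the same with the median of all genes set to 0, where 16.8% and 13.2% of all genes were up and down. As deposited 8 were higher and 3 lower in ELV, beside a lower quartile of log2 of -0.06 over all genes kept. With the median of all genes set to 0 the counts were 4 and 7. Irak3, an inhibitory member of the IRAK family, had 44.2 RPKM in PBS and 440.77 RPKM in ELV, a ratio of 9.97. The one called down was Atf3, a repressor of inflammatory genes also named after its value was seen, at 55.56 and 18.51 RPKM. Tnip1 had 53.01 and 222.86 RPKM, and Fam105b, the older symbol of the deubiquitinase gene Otulin, 12.47 and 59.9 RPKM. Of 17 target genes kept, 8 (47.1%) were up and 0 were down, beside 31.5% and 5.62% of all genes, with a median of 0.70. With the median of all genes set to 0, 4 (23.5%) were up and 2 (11.8%) down, beside 16.8% and 13.2% of all genes. Isg15, Ifit1 and Ifit2, which interferon induces, had ratios of 4.74, 4.08 and 6.17. The others called up, outside the rule for named genes, were Tnf, Il1b, Ccl3, Nfkbia and Rsad2. In all, 12 of the 17 were higher and 5 lower in ELV as deposited, where most genes kept were higher as well. With the median of all genes set to 0 the counts were 10 and 7. The 5 lower as deposited, also outside that rule, were Cxcl2, Ccl4, Ccl5, Cxcl10 and Ptgs2, at ratios of 0.946, 0.905, 0.529, 0.776 and 0.644. Ifnb1, left out by the filter, had 0.04 and 0.03 RPKM.

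**Figure D5:**
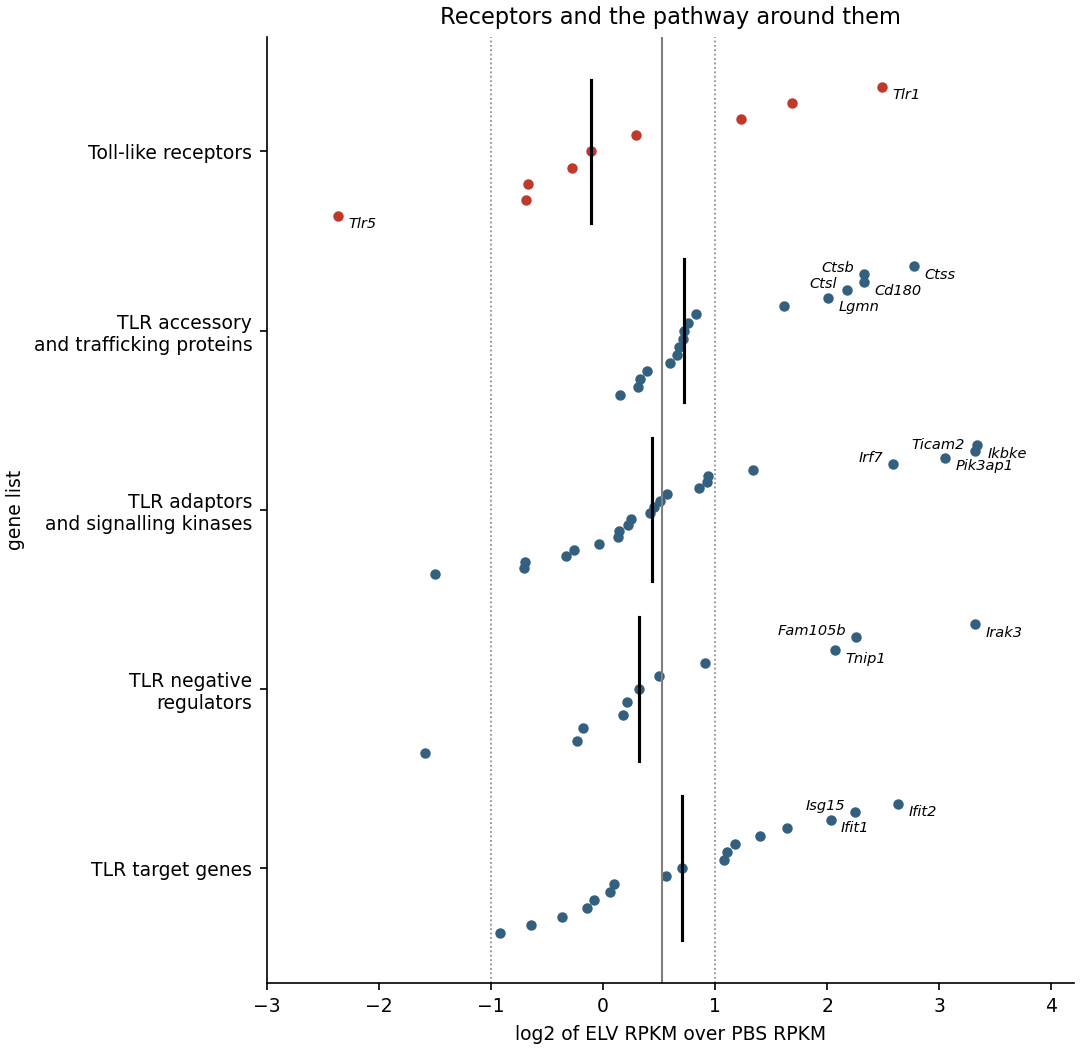
Log2 of ELV RPKM over PBS RPKM for the 9 receptor genes kept (red) and the genes kept of 4 pathway lists (blue), 1 point per gene, spread vertically for legibility. Black bars are list medians (-0.11, 0.72, 0.43, 0.32 and 0.70 from top to bottom), the grey line is the median of all genes (0.53), dotted lines are 2-fold, and genes at 4-fold or more are named.

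Other blood cells also carry these receptors, and their marker genes were read beside them. All 12 neutrophil markers were detected, at 144 RPKM or more in PBS. In ELV 11 of them were lower and 10 were called down, where 5.62% of all genes kept were down. The 12 summed to 84902 RPKM in PBS and 30855 RPKM in ELV. Of 13 monocyte or macrophage markers, 12 were higher in ELV, as most genes kept were. Of the 8 kept, 5 were up (Csf1r, Emr1, C1qb, C1qc and Ms4a7) and 1 was down (Ly6c2). Beside them, 31.5% of all genes kept were up and 5.62% down. The 13 markers summed to 350.1 RPKM in PBS and 516.5 RPKM in ELV, and none was at 0 in either library. Without Ly6c2, which had 184.41 and 37.12 RPKM and was left out after its value was seen, the other 12 summed to 165.6 and 479.4 RPKM. Csf1r had 58.1 and 152.64 RPKM, Emr1 20.91 and 151.51 RPKM, and Ms4a7 1.02 and 16.79 RPKM. C1qa, C1qb, C1qc and Cx3cr1 were low in both libraries, at 0.1 to 3.79 RPKM, and higher in ELV by ratios of 7.89, 7.67, 14.0 and 13.9. The 5 B cell markers, from a cell type that carries Tlr7 and Tlr9, were all lower in ELV, with summed levels of 108.1 and 66.87 RPKM. The 11 dendritic cell markers summed to 170.6 and 117.6 RPKM, most of it from genes that B cells also express (Cd74 and the H2 genes), and 9 of them were lower in ELV. The 6 T or NK cell markers summed to 58.5 and 8 RPKM, nearly all of it Cd3d at 56.44 and 7.02 RPKM. The rest of these, Cd3e, Cd3g, Cd247, Ncr1 and Klrb1c, were at 1.19 RPKM or less in both libraries. The 7 markers of basophils, mast cells or eosinophils summed to 11.28 and 7.45 RPKM. The 6 erythroid markers summed to 1.74 and 0.205 RPKM, and the 6 epithelial, for carry-over from CT26, to 0.59 and 0.205 RPKM. Among the markers at 0 were Ncr1, Klf1 and Krt19 in PBS, and Krt8 and Cldn4 in both libraries. The part of such cells in the values of the receptor genes was not tested.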

How the data were processed

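Total RNA had been extracted with TRIzol and made into 1 TruSeq mRNA library per group, sequenced on a HiSeq instrument. The authors trimmed low-quality bases and computed the deposited RPKM values with CLC Genomics Workbench, on build mm10 per the labels. The annotation, the handling of reads shared between genes and the use of strand are not given in the sources used here. From these values the ratio of ELV to PBS and its log2 were computed with no pseudocount for genes at 0.25 RPKM or more in both libraries. With 1 library per group no test was possible. Depth was estimated from features below 0.01 RPKM, whose values step by single reads, with transcript lengths of GENCODE (GRCm38). At the estimated depth 258 of 918 such features in PBS and 306 of 1064 in ELV fitted 1 read. Intervals are exact (Clopper-Pearson for ratios, Poisson for levels) and cover counting error alone. The scripts were tested on simulated data made with the same transcript lengths, which cannot show error from other lengths or from shared reads. Alternatives were other scalings, filters, pseudocounts and ratio limits. Named were the 10 receptor genes, Tlr11 and Tlr12, partner genes fixed by name, and listed genes at a ratio of 4 or more or 0.25 or less. Map3k7, Ikbkg, Atf3, Tnf, Il1b, Ccl3, Nfkbia, Rsad2, Cxcl2, Ccl4, Ccl5, Cxcl10, Ptgs2, Ifnb1, Ctsk and the markers named singly fall outside this rule. They were named after their values were seen. Some marker genes of the lists are not reported here by name. Members and lists were chosen with earlier results of these data known. Python 3.11.15, pandas 2.3.3, numpy 2.4.6, scipy 1.17.1 and matplotlib 3.10.9 were used.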

Additional observations from a re-analysis of the deposited data

How the results depend on the processing

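Of 235 recomputed values 142 stayed within their limit, 93 moved and 0 changed sign among called values. The limit was a counting interval for fold changes and sums, and a factor of 1.5 for counts. A change of sign could be counted only for the fold changes of Tlr1, Tlr5, Tlr7 and Tlr9, so the 0 says nothing of the other values. Setting the median or the trimmed mean of all log ratios to 0 removed 0.53 and 0.54. With them 1634 and 1596 genes were up (16.8% and 16.5%) and 1282 and 1321 down (13.2% and 13.6%). Under each, 2 receptor genes were up (22.2%) and 3 were down (33.3%, Tlr5, Tlr4 and Tlr13). The receptor median was -0.64 and -0.65, and the log2 ratio of the summed receptor RPKM was -0.74 and -0.75 (surface -0.62 and -0.64, endosomal -0.94 and -0.96). Under both, 3 adaptor genes were down (13.6%), and 4 target genes were up (23.5%) and 2 down (11.8%). With the median of genes of like level removed, 1290 genes were up (13.3%) and 1304 down (13.4%). By that setting 1 receptor gene was up (11.1%) and 1 down (11.1%), and 3 adaptor genes (13.6%) and 2 target genes (11.8%) were down. With TPM the receptor median was -0.07 and the summed ratios were -0.17, -0.05 (surface) and -0.37 (endosomal). With TPM without S100a8 and S100a9 they were -0.29, -0.39, -0.27 and -0.59, and 1 target gene was down (5.88%, beside 7.43% of all genes). At 1 RPKM or more 1958 genes were up, and with a pseudocount of 1, 1976. At a ratio of 4, 826 genes were up (8.52%) and 111 down (1.14%). By that limit 1 receptor gene (11.1%) and 3 target genes (17.6%) were up. Down were 1 receptor gene (11.1%), 0 adaptor genes and 0 negative regulators. At a ratio of 1.5, 4585 genes were up (47.3%) and 1092 down (11.3%). By that limit 3 receptor genes were up (33.3%) and 3 down (33.3%). Up were also 13 accessory (76.5%) and 8 adaptor genes (36.4%), and down were 3 adaptor (13.6%) and 2 target genes (11.8%). With no filter and a pseudocount of 0.25 the median over all 10 receptor genes was 0.08. Tlr1 and Tlr5 kept their calls under all 9 alternatives that gave them a value. These were not 9 separate checks. The filter at 1 RPKM leaves their fold changes as deposited, and the median and trimmed mean shifts were nearly the same. None of them bears on the reads that Tlr1 and Tlr6 may share. Leaving out a replicate could not be done with 1 library per group. No paired analysis was possible because each group had 1 library and no test was made. The estimated depth limits Tlr3, Tlr11 and Tlr12. No value has a replicate check, the calls of Tlr4, Tlr7, Tlr9 and Tlr13 and the sign of Tlr8 depend on the scaling, and Tlr1 and Tlr6 share sequence.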
